A study of Homo sapiens with 6 samples.

Results

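The genes described here are 51 genes of actin filaments, of contraction and of the SRF-MRTF pathway. They were chosen by symbol from a list written by role, with earlier results of these data known. All 51 were among the 61155 symbols of the count table. RNA was sequenced from undifferentiated cells of H7, an established line of human embryonic stem cells (hESCs), in 3 WT libraries and 3 libraries of S6K1-/- hESCs. The WT cells are labelled as the wild-type line. The S6K1-/- cells were made from H7 by CRISPR/Cas9 with guides to exon 9 and exon 11 of RPS6KB1, the gene of S6 kinase 1, and were expanded from sorted cells as a clone. Both groups were kept without feeder cells on Matrigel in TeSR-E8 medium. The labels also give week 5 and a knockdown for these samples, whereas the methods describe undifferentiated hESCs depleted of S6K1. The study's results section names the knockout hESCs of this comparison as clone #1. All S6K1-/- libraries are of this clone, so the effect of the genotype and that of the clone cannot be told apart. Neither the labels nor the methods say whether the libraries of a group come from separate cultures, and the p-values then measure the spread between these libraries only.

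Between 21896698 and 24473013 counts were deposited per library, and the 51 genes took from 1.56% to 1.75% of a library. RPS6KB1 had 831, 791 and 777 counts in WT and 464, 464 and 438 counts in S6K1-/- hESCs, so every S6K1-/- library was below every WT library. The 12 pluripotent stem cell markers were all detected, with a summed level from 7856 to 8037 CPM in WT and from 7347 to 7449 CPM in S6K1-/- libraries. Of these markers, DNMT3B, a DNA methyltransferase, was lower in S6K1-/- hESCs (log2 fold change -0.35, SE 0.0438, adjusted p = 4.88e-05) and the other 11 were not called, among them SALL4 (-0.17, adjusted p = 0.00566). Here CPM is counts per 1e+06 counts of the TMM-scaled library, a log2 fold change is S6K1-/- against WT with its standard error (SE), and the adjusted p is that of edgeR's quasi-likelihood F test, adjusted over every gene tested, with a threshold of 0.001.

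SRF is a transcription factor that binds the CArG box, a short AT-rich element in the promoters of muscle and cytoskeletal genes. The MRTFs are coactivators of SRF that are held by actin monomers and act in the nucleus when monomers are drawn into filaments. Actin monomers are thus a sensor of the pathway, and actin genes are among its targets. MYOCD is the related coactivator of smooth muscle and heart, and the ternary complex factors are the other partners of SRF. Pluripotent stem cells build their cortex from the cytoplasmic actins and nonmuscle myosin.

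Of the 51 genes, 48 had enough counts to be tested, and 9 of them passed the threshold as lower in S6K1-/- hESCs. Over all 19521 genes tested, 2.54% were lower and 1.42% were higher, against 18.8% lower and 0 higher of the 48. The list was chosen with earlier results known, so this contrast is a description and was not tested. With edgeR at an unadjusted p under 0.05, 19 of the 48 were lower and 2 were higher, against 14.5% and 11.8% of all genes tested. By the Wald test of DESeq2 at an adjusted p under 0.001, 10 were lower and 0 higher, against 1.98% and 1.41% of all genes that it tested. The genes past the threshold were ACTC1, TAGLN, MYL9, FLNC, CNN1, TPM1, FHL1, TPM2 and CALD1. The other 39 were not called, and 3 genes, ACTA1, MYL7 and MYH11, did not pass the filter on low counts. The fold change lay below 0 for 36 of the 48 (75%) and for 50.6% of all genes tested, and its median was -0.10 against -0.0024 on the log2 scale. In 22 of the 48 genes no S6K1-/- library lay within the range of the WT libraries, and 20 of these were lower. The groups did not overlap for 30.7% of all genes tested, and 16.7% of all genes tested were lower without overlap. Since these are bulk samples, fewer cells that express a gene and less of its RNA per cell cannot be told apart.

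By role, 4 of 8 genes that bind along the filament were lower, 2 of 6 calponins and transgelins, 1 of 5 actins tested, 1 of 8 myosin genes tested and 1 of 4 LIM domain genes. None of the 4 transcription regulators, 5 sarcomere genes and 4 genes of monomer binding and filament turnover passed the threshold with edgeR or with DESeq2's Wald test. At an unadjusted p under 0.05, edgeR put 1 transcription regulator lower and 1 higher, 3 sarcomere genes lower and 1 turnover gene higher.

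**Figure D1:**
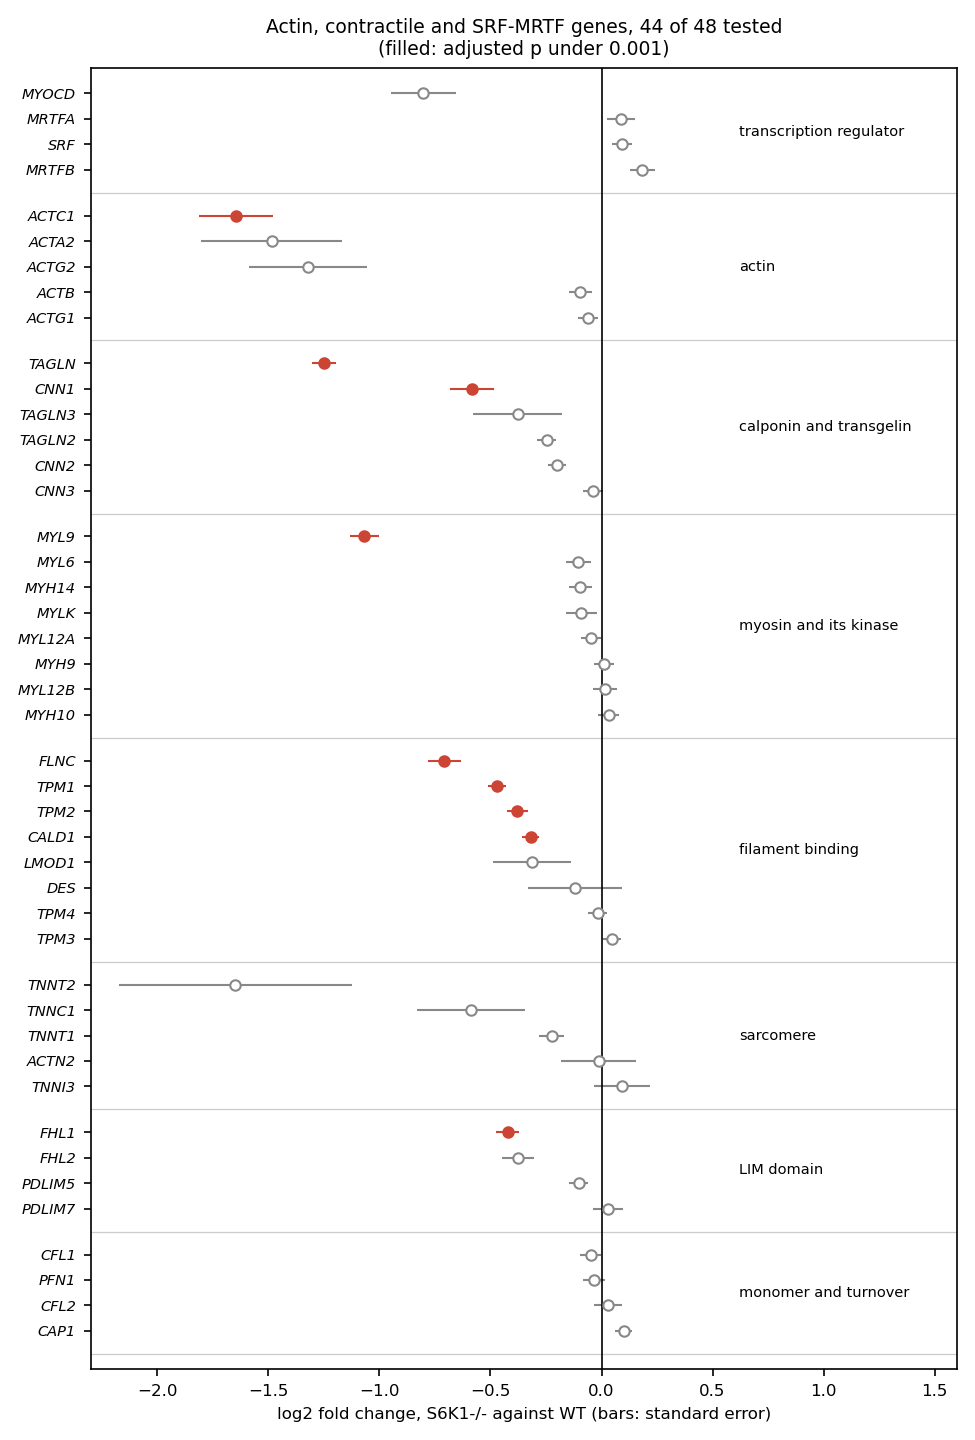
Log2 fold change of 44 of the 48 genes tested (x axis, S6K1-/- against WT, 3 libraries each) by role, with the standard error as bars. The 9 filled points passed an adjusted p of 0.001, all of them left of 0, from -1.65 for ACTC1 to -0.32 for CALD1.

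Of the 5 actins tested, ACTC1 was lower and the other 4 were not called. ACTB and ACTG1, the cytoplasmic actins, had the highest levels per length of all 51 genes, at 1174 ± 63.1 and 1038 ± 36.6 CPM per kb of exon (SD, n = 3) in WT hESCs. ACTB, on the minus strand of chromosome 7 of GRCh38 from 5526409 to 5563902, had 119816, 134504 and 118982 counts in WT and 112991, 120281 and 102139 in S6K1-/- hESCs. The ranges of its groups overlapped and the log2 fold change was -0.09 (SE 0.051, adjusted p = 0.26). ACTG1 had a log2 fold change of -0.06 (SE 0.0454, adjusted p = 0.425).

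The 4 muscle actins were all far below these levels, from 0.159 CPM per kb for ACTA2 to 1.49 CPM per kb for ACTC1 in WT hESCs. ACTC1, the cardiac alpha-actin, lies on the minus strand of chromosome 15 from 34790107 to 34795589. It had 93, 121 and 94 counts in WT and 28, 32 and 34 counts in S6K1-/- libraries. Its groups stood well apart, with a log2 fold change of -1.65 (SE 0.168, adjusted p = 6.66e-06). ACTA2, the smooth muscle alpha-actin on chromosome 10 from 88935074 to 88991339, had 22, 27 and 16 counts in WT and 8, 6 and 8 in S6K1-/- hESCs. ACTG2, the smooth muscle gamma-actin on chromosome 2 from 73892314 to 73919865, had 29, 30 and 43 counts in WT and 15, 14 and 10 in S6K1-/- hESCs. Each S6K1-/- library lay below every WT library in both genes, which did not pass the threshold, with log2 fold changes of -1.49 (SE 0.319, adjusted p = 0.00526) and -1.32 (SE 0.267, adjusted p = 0.00341). Without the filter on low counts both were past it, with an adjusted p of 3.41e-04 for ACTA2 and 2.80e-05 for ACTG2. ACTA1, the skeletal alpha-actin, had 11, 13 and 9 counts in WT and 2, 1 and 4 in S6K1-/- hESCs, too few to be tested. Summed over counts per length, the 4 muscle actins were 0.0999% ± 0.00608 (SD, n = 3) of all 6 actins in WT and 0.0347% ± 0.00426 in S6K1-/- hESCs. The rest came from ACTB and ACTG1. Of the windows of 100 bases in an actin transcript, at most 0.18% also occur in another gene, whereas 29.1% of the exonic bases of ACTA2 lie opposite ACTA2-AS1 and 15.7% of those of ACTC1 opposite GJD2-DT. ACTA2-AS1, named after its values were seen, had 18, 17 and 11 counts in WT and 6, 7 and 3 in S6K1-/- hESCs. The libraries were made with a stranded kit, so the reads carry their strand, but whether the counting used it is not given in the sources used here. How many reads of ACTA2 and ACTA2-AS1 were counted for each other was not tested.

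The promoters of these actins and of the called genes with the largest change are shown because the CArG box is the element that SRF reads. RefSeq promoters of GRCh38.p14 were matched to 44 of the 51 genes. They run from 250 bases before to 50 bases after a gene start. The promoters of ACTB, TAGLN, MYL9, MYOCD, MYH11, DES and TNNC1 were not used here. For each gene 1 promoter was used, which need not be at its outermost start, and other starts were not searched. The 250 bases before the start are given here, 5′ to 3′ on the strand of the gene. Capitals mark CArG boxes and the CArG-like elements that differ from the box at 1 base of its AT-rich core.
ACTC1 (chr15:34795550-34795799, minus): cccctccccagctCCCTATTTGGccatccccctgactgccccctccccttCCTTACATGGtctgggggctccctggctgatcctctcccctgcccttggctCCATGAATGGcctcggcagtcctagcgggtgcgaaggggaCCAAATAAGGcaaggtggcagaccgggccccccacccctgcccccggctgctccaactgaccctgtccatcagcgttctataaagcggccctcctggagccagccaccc
ACTA1 (chr1:229434095-229434344, minus): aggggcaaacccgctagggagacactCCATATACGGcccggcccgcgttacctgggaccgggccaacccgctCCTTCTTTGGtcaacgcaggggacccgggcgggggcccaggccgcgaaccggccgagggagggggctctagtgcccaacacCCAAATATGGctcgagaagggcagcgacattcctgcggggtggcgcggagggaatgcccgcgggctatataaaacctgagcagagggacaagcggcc
ACTG2 (chr2:73892758-73893007, plus): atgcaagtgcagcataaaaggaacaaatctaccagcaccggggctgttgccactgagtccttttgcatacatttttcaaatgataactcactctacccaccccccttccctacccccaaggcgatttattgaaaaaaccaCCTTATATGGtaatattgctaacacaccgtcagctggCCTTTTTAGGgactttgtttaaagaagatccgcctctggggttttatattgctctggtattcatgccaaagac
ACTG1 (chr17:81512800-81513049, minus): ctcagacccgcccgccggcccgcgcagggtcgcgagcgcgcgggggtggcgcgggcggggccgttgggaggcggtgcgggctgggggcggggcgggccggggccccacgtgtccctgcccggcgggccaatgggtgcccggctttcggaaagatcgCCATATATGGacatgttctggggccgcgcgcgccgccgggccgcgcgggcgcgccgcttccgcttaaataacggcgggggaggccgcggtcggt
ACTA2 (chr10:88991338-88991587, minus): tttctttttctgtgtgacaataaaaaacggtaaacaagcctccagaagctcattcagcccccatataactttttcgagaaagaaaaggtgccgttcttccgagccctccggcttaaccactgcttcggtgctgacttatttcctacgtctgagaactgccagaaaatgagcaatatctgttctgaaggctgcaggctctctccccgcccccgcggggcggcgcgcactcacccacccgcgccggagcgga
FLNC (chr7:128830156-128830405, plus): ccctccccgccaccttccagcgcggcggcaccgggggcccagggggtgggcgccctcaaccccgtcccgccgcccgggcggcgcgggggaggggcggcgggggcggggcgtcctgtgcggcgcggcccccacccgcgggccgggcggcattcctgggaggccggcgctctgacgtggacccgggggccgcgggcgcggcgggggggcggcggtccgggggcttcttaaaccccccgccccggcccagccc
CNN1 (chr19:11538601-11538850, plus): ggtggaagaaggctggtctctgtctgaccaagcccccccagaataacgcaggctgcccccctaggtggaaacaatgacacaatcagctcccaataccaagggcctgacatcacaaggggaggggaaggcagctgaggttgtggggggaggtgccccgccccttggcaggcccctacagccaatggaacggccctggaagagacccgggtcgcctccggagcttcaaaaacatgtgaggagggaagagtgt
A CArG box begins 109 bases before the start of ACTC1, 97 before ACTA1, 94 before ACTG1, and 110 and 73 before ACTG2. ACTC1 has CArG-like elements at 237, 200 and 149 bases before its start as well, and ACTA1 at 224 and 178. No element of either kind was found in these windows of ACTA2, FLNC and CNN1, which says only that these letters are not in them. The ACTA2 window lies at the outer end of its gene, at 88991339, and any start further inside was not searched.

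Searched on both strands, the CArG box was found in 11 of the 44 promoters (25%). It was found in 1.29% of all 35116 promoters and 1.02% of the 11905 promoters of genes tested. The list holds genes of the SRF-MRTF pathway, so a higher share can follow from its choice and is no test of these data. The 35116 promoters were also not kept to 1 per gene, as the 44 were. With CArG-like elements included, 12 of 44 promoters (27.3%) held a match, against 8.13% of all promoters. Among the genes with a CArG box were SRF itself, ACTA1, ACTC1, ACTG1, ACTG2, CNN2, MYL7, MYLK, TPM4 and FHL2. CAP1 had a CArG-like element alone. The MYLK window, from 123620499 to 123620798 on chromosome 3, lies inside that gene, which runs from 123610049 to 123884332 on the minus strand. In SRF the boxes begin 30 and 10 bases before the start. Of the 7 called genes with a promoter, only ACTC1 had a box, and among the 35 promoters of genes tested and not called 8 had one (22.9%). These matches are letters in a reference sequence, and binding was not measured.

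None of the genes of SRF and its coactivators passed the threshold. SRF had 2171, 2056 and 2061 counts in WT and 2198, 2307 and 1935 in S6K1-/- libraries, which overlapped (log2 fold change 0.09, SE 0.0444, adjusted p = 0.199). MRTFA, with 843, 757 and 755 counts in WT and 840, 874 and 690 in S6K1-/- libraries, overlapped as well (0.09, SE 0.0648, adjusted p = 0.434). MRTFB had 902, 829 and 879 counts in WT and 971, 1002 and 873 in S6K1-/- libraries. After scaling, its S6K1-/- libraries were all above the WT libraries, at 41.1 ± 0.90 against 36.2 ± 2.19 CPM (SD, n = 3), but the log2 fold change of 0.18 did not pass the threshold (SE 0.0549, adjusted p = 0.0371). MYOCD, on the plus strand of chromosome 17 from 12665890 to 12768949, went the other way. It had 105, 89 and 111 counts in WT and 62, 59 and 47 counts in S6K1-/- hESCs, with no overlap and a log2 fold change of -0.80 (SE 0.148, adjusted p = 0.00169). Its adjusted p was under 0.001 in 2 of 13 alternative analyses, without WT replicate 2 (8.73e-04) and without a filter on low counts (7.12e-06). In WT hESCs MYOCD stood at 0.477 CPM per kb, below MRTFA at 4.46, MRTFB at 2.18 and SRF at 20.6 CPM per kb.

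TAGLN, the transgelin of smooth muscle and an actin-binding protein, had the smallest adjusted p of the 48 genes tested. It lies on the plus strand of chromosome 11 from 117199370 to 117207464 and had 1302, 1397 and 1244 counts in WT and 513, 573 and 504 in S6K1-/- hESCs. The level went from 54.6 ± 1.91 to 23.0 ± 1.05 CPM (SD, n = 3), a log2 fold change of -1.25 (SE 0.0545, adjusted p = 4.18e-10). TAGLN2, the transgelin of many nonmuscle cells, was lower in every S6K1-/- library than in any WT library, by a much smaller amount that just missed the threshold (-0.25, SE 0.043, adjusted p = 0.00106). The share of TAGLN among the 3 transgelins, per length, was from 18.79% to 18.85% in the WT libraries and from 10.01% to 10.85% in the S6K1-/- libraries. The exons of TAGLN overlap those of other genes. On the same strand, 65.1% of the windows of 100 bases in its transcript, and 38.1% of its exonic bases, are shared with ENSG00000280143, a gene model without a symbol. PCSK7, a proprotein convertase gene on the opposite strand and named after its values were seen, shares 34.1% of the exonic bases of TAGLN. It had 1834, 1797 and 1720 counts in WT and 1294, 1359 and 1144 in S6K1-/- hESCs, and was lower too (log2 fold change -0.44, SE 0.0437, adjusted p = 5.53e-06). How many reads of the one were counted for the other was not tested.

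Calponins bind actin and damp the myosin ATPase. CNN1, the calponin of smooth muscle on the plus strand of chromosome 19 from 11538767 to 11550323, had 278, 224 and 232 counts in WT and 156, 169 and 145 in S6K1-/- hESCs. The groups did not overlap (log2 fold change -0.58, SE 0.0982, adjusted p = 7.93e-04), but this was the weakest of the 9 calls. It held in 6 of 13 alternative analyses. The adjusted p was 0.00669 without WT replicate 1, 0.00441 without WT replicate 3, 0.00508, 0.00288 and 0.00657 when S6K1-/- replicates 1, 2 and 3 were left out in turn, 0.00137 with DESeq2's Wald test and 0.00208 with the replicate number as a block, with the fold change below 0 each time. CNN2, a calponin of nonmuscle cells and the most abundant of this group, had 11758, 12328 and 11201 counts in WT and 10247, 10298 and 8923 in S6K1-/- hESCs. Its groups did not overlap after scaling either, with a log2 fold change of -0.20 (SE 0.0408, adjusted p = 0.00364). CNN3 and the neuronal TAGLN3 overlapped between the groups, at -0.04 and -0.38 (adjusted p = 0.645 and 0.251). CNN1 was 1.61% ± 0.215 (SD, n = 3) of the calponins per length in WT and 1.18% ± 0.0529 in S6K1-/- hESCs.

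Among the 8 myosin genes tested, 1 light chain passed the threshold. MYL9, the regulatory light chain of smooth muscle myosin, lies on the plus strand of chromosome 20 from 36541497 to 36551447. It had 981, 1084 and 908 counts in WT and 484, 479 and 398 counts in S6K1-/- hESCs. This was 41.2 ± 2.61 against 19.6 ± 1.21 CPM (SD, n = 3), a log2 fold change of -1.07 (SE 0.0655, adjusted p = 2.22e-08). The other regulatory light chains of this family, MYL12A and MYL12B, had log2 fold changes of -0.05 and 0.02 (adjusted p = 0.551 and 0.884) and overlapped between the groups. MYL9 was 9.92% ± 0.518 (SD, n = 3) of the 3 regulatory light chains per length in WT and 5.02% ± 0.488 in S6K1-/- hESCs. MYH9, a heavy chain of nonmuscle myosin II and the myosin gene with the most counts, had 15044, 13655 and 13745 counts in WT and 14360, 14226 and 12486 in S6K1-/- hESCs. The groups of MYH9 lay in the same range (log2 fold change 0.01, SE 0.0463, adjusted p = 0.909). MYH10 and MYH14, the other nonmuscle heavy chains, the essential light chain MYL6 and MYLK, the kinase of the regulatory light chain, had log2 fold changes from -0.10 to 0.03, and none was called. MYL7, an atrial light chain, had 10, 6 and 15 counts in WT and 3, 2 and 3 in S6K1-/- hESCs, below the filter. MYH11, the smooth muscle heavy chain, is listed at 0 in every library but S6K1-/- replicate 2, which had 9 counts. NDE1, on the strand opposite MYH11 and named after its values were seen, is listed with 10 counts in that same library and 0 or 1 in the others.

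**Figure D2:**
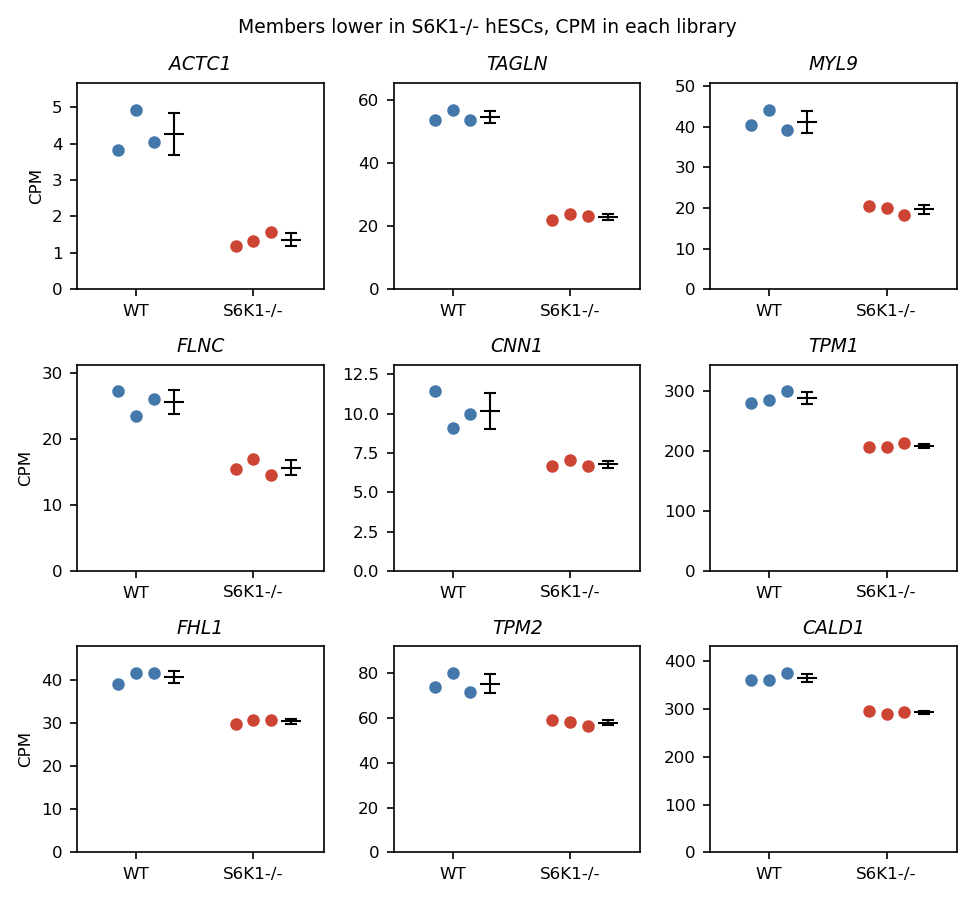
CPM of the 9 called genes (y axes from 0) in each of the 3 WT (blue) and 3 S6K1-/- (red) libraries, with mean and SD in black. In each of the 9 genes every S6K1-/- library lies below every WT library, with the widest gaps relative to the level in ACTC1, TAGLN and MYL9.

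Genes whose products lie along the filament made up 4 of the 9 calls. FLNC, the filamin of muscle and a crosslinker of actin filaments, lies on the plus strand of chromosome 7 from 128830406 to 128859274. It had 664, 580 and 606 counts in WT and 364, 406 and 318 in S6K1-/- hESCs, for a log2 fold change of -0.71 (SE 0.0749, adjusted p = 9.39e-06). Tropomyosins are coiled coils that lie along the filament and govern the access of myosin. TPM1, on the plus strand of chromosome 15 from 63042620 to 63071915, had 6819, 7011 and 6945 counts in WT and 4836, 4926 and 4630 in S6K1-/- hESCs. The libraries of each group were close together, and the log2 fold change was -0.47 (SE 0.0402, adjusted p = 9.91e-07). TPM2, on the minus strand of chromosome 9 from 35681992 to 35690056, had 1803, 1970 and 1668 counts in WT and 1383, 1398 and 1231 in S6K1-/- hESCs (-0.38, SE 0.0478, adjusted p = 5.69e-05). TPM4, the tropomyosin with the most counts, had 15668, 16488 and 15084 counts in WT and 15623, 14807 and 14297 in S6K1-/- hESCs. Neither TPM4 nor TPM3 was called, at -0.02 and 0.05 (adjusted p = 0.847 and 0.5), and both overlapped between the groups. TPM1 and TPM2 together were 33.9% ± 0.0777 (SD, n = 3) of the 4 tropomyosins per length in WT and 27.6% ± 0.526 in S6K1-/- hESCs. Of the exonic bases of TPM1, 18% lie opposite TPM1-AS, named after its values were seen, which had 258, 224 and 274 counts in WT and 197, 194 and 172 in S6K1-/- hESCs.

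CALD1, caldesmon, an actin- and tropomyosin-binding inhibitor of myosin, lies on the plus strand of chromosome 7 from 134744252 to 134970729. It had 8767, 8890 and 8726 counts in WT and 6972, 6934 and 6387 in S6K1-/- hESCs, the smallest fold change of the 9 calls at -0.32 (SE 0.0385, adjusted p = 3.67e-05). LMOD1, a leiomodin that starts filaments in smooth muscle, and DES, the intermediate filament of muscle, had at most 82 and 39 counts in a library, overlapped between the groups and had log2 fold changes of -0.31 and -0.12 (adjusted p = 0.283 and 0.778).

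In each of these 5 families the share was lower in every S6K1-/- library than in any WT library. Each share holds a gene already called lower, so it restates those calls and is no further support. The shares are a description of the same counts and were not tested separately. They were computed on exon lengths merged over all transcripts of a gene in GENCODE 44, which may not be those used in the counting. For TPM1 this was 14700 bases, against 1217 in its canonical transcript, and the shares depend on these lengths.

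None of the 5 sarcomere genes was called. TNNT1, the slow skeletal troponin T and the sarcomere gene with the most counts, had 846, 953 and 808 counts in WT and 720, 749 and 670 in S6K1-/- hESCs. Its groups did not overlap, with a log2 fold change of -0.22 that missed the threshold (SE 0.0574, adjusted p = 0.0162). TNNT2, the cardiac troponin T, had 16, 13 and 11 counts in WT and 7, 5 and 0 in S6K1-/- hESCs (-1.65, SE 0.526, adjusted p = 0.0506), and 78.6% of the windows of 100 bases in its transcript occur in an overlapping gene on the same strand as well. TNNC1, the calcium-binding troponin, had a log2 fold change of -0.59 (SE 0.244, adjusted p = 0.135) on at most 39 counts. TNNI3, the cardiac inhibitory troponin, and ACTN2, an alpha-actinin of the Z disc, overlapped between the groups at 0.09 and -0.01 (adjusted p = 0.707 and 0.975).

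Of the LIM domain genes, FHL1 was lower. FHL1, of skeletal and heart muscle, lies on the plus strand of chromosome X from 136146702 to 136211359 and had 950, 1021 and 962 counts in WT and 698, 734 and 666 in S6K1-/- hESCs. The groups did not overlap (log2 fold change -0.42, SE 0.0519, adjusted p = 4.25e-05). FHL2, which can bind SRF, showed a fold change of similar size on fewer counts, at -0.38 (SE 0.0733, adjusted p = 0.0026). PDLIM5, the member of this group with the most counts, had 1723, 1849 and 1769 counts in WT and 1596, 1700 and 1476 in S6K1-/- hESCs (-0.10, SE 0.044, adjusted p = 0.147). PDLIM7 was at 0.03 (adjusted p = 0.836).

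The genes that handle actin monomers and turn filaments over differed little between the groups. PFN1, profilin, which loads monomers for assembly and had the third highest level per length, had 20238, 22879 and 19692 counts in WT and 19114, 21362 and 18349 in S6K1-/- hESCs. Its groups overlapped at a log2 fold change of -0.03 (SE 0.0506, adjusted p = 0.732). The filament-severing cofilins CFL1 and CFL2 were at -0.05 and 0.03 (adjusted p = 0.569 and 0.818). CAP1, which recycles monomers, was higher in each S6K1-/- library than in any WT library after scaling, without passing the threshold (0.10, SE 0.038, adjusted p = 0.103).

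**Figure D3:**
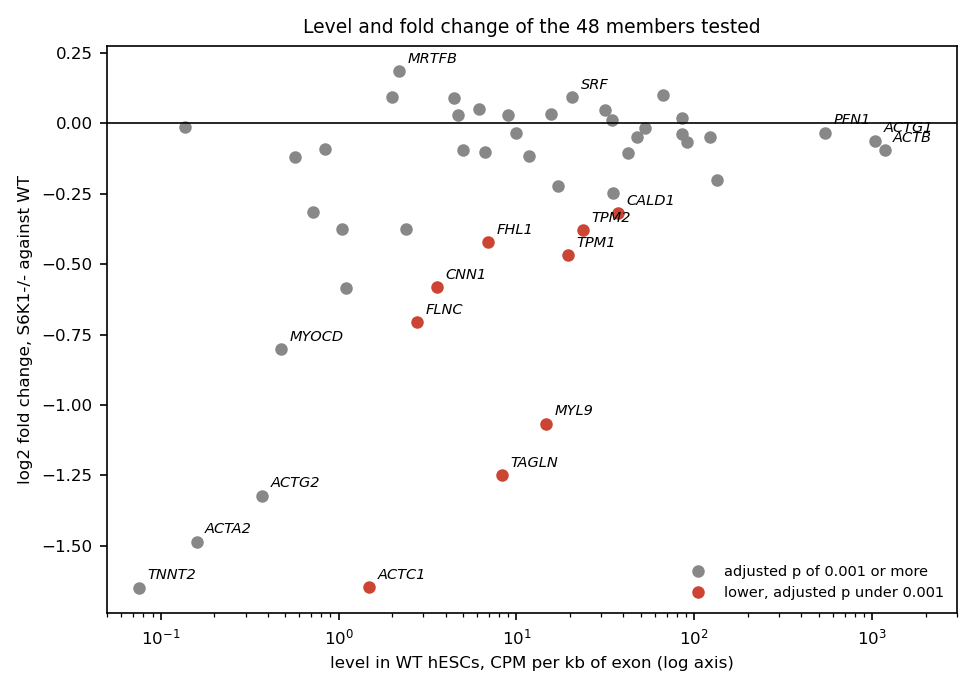
Level in WT hESCs (x axis, CPM per kb of exon, log axis) against the log2 fold change (y axis) of the 48 genes tested, with called genes in red. The genes with the highest levels, ACTB, ACTG1 and PFN1, lie near 0, and the 9 called genes have levels from 1.49 CPM per kb (ACTC1) to 37.4 CPM per kb (CALD1).

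The called genes were at intermediate or low levels per kb of all exons annotated for a gene. By this measure none of the 12 genes ranked highest in WT hESCs was called, and CALD1 was ranked 13. The ranks depend on that length, which for TPM1 was 14700 bases against 1217 in its canonical transcript. Without length, CALD1 and TPM1 stood at 366 and 288 CPM in WT hESCs. TNNT2, ACTA2 and ACTG2 did not pass the threshold at log2 fold changes from -1.65 to -1.32, with standard errors from 0.267 to 0.526.

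Other genes of the pathway were taken from lists written by role, also with earlier results of these data known. Of 32 other SRF-MRTF targets, 30 were tested, 6 were lower and 0 were higher, with a median log2 fold change of -0.08. By the Wald test of DESeq2 7 were lower and 1 was higher, and 1 was higher at an unadjusted p under 0.05 with edgeR. CCN2 and CCN1, secreted matrix proteins that are targets of YAP as well, were lower by -2.13 (SE 0.0613, adjusted p = 4.52e-12) and -1.13 (SE 0.0496, adjusted p = 4.42e-10). CSRP1, a LIM protein of smooth muscle, SYNPO2, an actin-bundling protein, and MYO1E, a class I myosin, were lower by -0.43, -1.15 and -0.35 (adjusted p = 1.58e-04, 1.68e-04 and 2.55e-04). THBS1 made up the count of 6 at -0.42 (adjusted p = 8.36e-04). The count depended on single libraries. Leaving out WT replicates 1, 2 and 3 in turn gave counts of 2, 7 and 4, leaving out S6K1-/- replicates 1, 2 and 3 gave 3, 3 and 2, and CCN1 and CCN2 were past the threshold in all 6 of these. VCL, the vinculin of focal adhesions, had a log2 fold change of -0.22 (adjusted p = 0.00348), and TES, also of focal adhesions, one of 0.23 (adjusted p = 0.00113), both named after their values were seen.

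Genes that SRF drives with ternary complex factors gave 1 call, in the other direction. Of 14 such factors and immediate early genes, 12 were tested, 1 was higher and 0 were lower, with 1 lower at an unadjusted p under 0.05 with edgeR and 0 lower with DESeq2's Wald test. FOS, a subunit of AP-1, had 127, 126 and 119 counts in WT and 170, 201 and 187 in S6K1-/- hESCs (log2 fold change 0.65, SE 0.101, adjusted p = 4.05e-04). Its groups did not overlap. The adjusted p was 0.00183, 0.00131 and 0.00264 when WT replicates 1, 2 and 3 were left out in turn, and 3.99e-04, 0.00271 and 0.00315 for S6K1-/- replicates 1, 2 and 3, so that 1 of 6 fits kept it past the threshold. FOSB, at -0.84 with at most 37 counts, was not called (adjusted p = 0.0175). The difference in direction between the lists was not tested.

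Of 26 other genes of the sarcomere and striated muscle, 11 were tested and 2 were lower. These were ACTN3, an alpha-actinin of fast muscle (log2 fold change -0.76, adjusted p = 1.75e-06), and NEBL, a nebulin relative of heart muscle (-0.75, adjusted p = 6.97e-06).

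Several of the genes described here are markers of smooth muscle and mesenchyme, so the markers of these cells were read beside them. Of 15 such markers, 9 were tested, 5 were lower and 0 were higher with edgeR and with DESeq2's Wald test, and 0 were higher at an unadjusted p under 0.05. Lower were COL1A1 and COL1A2, the chains of collagen I (log2 fold changes -1.79 and -0.50), the receptors PDGFRB (-1.34) and DDR2 (-1.59), and TWIST2, a transcription factor of mesenchyme with 171, 200 and 179 counts in WT and 89, 100 and 74 in S6K1-/- hESCs. Their adjusted p ran from 6.95e-12 for COL1A1 to 1.80e-05 for TWIST2. THY1, which pluripotent stem cells also express and which was named after its values were seen, had 11559, 12037 and 11576 counts in WT and 11049, 11746 and 10420 in S6K1-/- hESCs (log2 fold change -0.02, adjusted p = 0.776), the most of the list. The summed level of the list was from 666 to 685 CPM in WT and from 570 to 590 CPM in S6K1-/- libraries. Of the 6 markers not tested, DCN and FAP were at 0 in every library, and COL3A1, LUM, TWIST1 and PRRX1 had at most 3 counts in a library, while COL1A1 stood at 80.2 CPM, PDGFRB at 7.90 and DDR2 at 3.76 CPM in WT hESCs. Markers of mesoderm and the cardiac lineage moved in neither direction at the threshold, with 5 of 14 tested and 0 called by edgeR or DESeq2's Wald test, and 1 lower and 2 higher at an unadjusted p under 0.05. Their summed level was from 19.6 to 21.0 CPM in WT and from 22.3 to 22.8 CPM in S6K1-/- libraries, with HAND1 at 0 and NKX2-5 at 1 count or fewer. The part of differentiated cells in the lower levels of the muscle genes was not tested.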

How the data were processed

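Poly(A) RNA of H7 hESCs was made into 6 libraries with a stranded kit (TruSeq Stranded mRNA) and sequenced as paired reads. According to the methods and the submitters' processing notes, the authors trimmed the reads with Trim Galore 0.6.5, aligned them to GRCh38 with Bowtie2 2.4.5, which does not span splice junctions, and counted reads per gene with featureCounts. The annotation release and whether the counting used the strand are not given in the sources used here. The counts were deposited as whole numbers per gene symbol without normalization. A deposited table of the authors' comparison with DESeq2 1.37.4 (mean counts, fold changes, standard errors, statistics and p-values) was not used.

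Genes were filtered with filterByExpr and scaled by TMM, and S6K1-/- was compared with WT by edgeR's quasi-likelihood test (edgeR 4.0.16, R 4.3.3) without covariates. Benjamini-Hochberg adjustment of the p-values covered 19521 genes, with the study's threshold of 0.001. The steps were tested on simulated data. The alternatives were DESeq2's size factors, no scaling, the Wald test of DESeq2 (version 1.42.0), no filter, a minimum of 10 counts per library, a block on the replicate number, no mitochondrial genes, each library left out and a threshold of 0.05.

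Libraries of a group differed by more than counting noise (chi-square per degree of freedom 2.24 to 4.54). Same-numbered libraries correlated at 0.0240 to 0.115 in their deviations, and no shared batch is named, so the numbers were not taken to pair them. Levels and shares per length used all exons of a gene in GENCODE 44 on GRCh38, merged over its transcripts. The genes and lists were chosen with earlier results of these data known. By rule, counts of every library are given for called genes, for SRF and its cofactors and for the gene with the most counts in each role, and for further lists up to 5 called genes with the smallest adjusted p, or the 2 genes with the smallest p where fewer passed. Some of the genes chosen are not reported here by name or value, but remain in the counts over all 51.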

Additional observations from a re-analysis of the deposited data

How the results depend on the processing

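Of the 9 genes called lower, 8 were past the threshold in all 13 alternative analyses, and CNN1 in 6. The number lower was 15 without a filter on low counts and 16, with 1 higher, at an adjusted p under 0.05, and it ranged from 8 to 10 with each library left out. Over all genes, 982 were lower and 591 higher without the filter, and 1622 and 1067 at an adjusted p under 0.05. Leaving out each library gave 313 to 445 lower and 175 to 235 higher. The median log2 fold change of the genes described was -0.1198 without scaling factors and -0.1223 to -0.07482 with each library left out. The other SRF-MRTF targets lower ranged from 2 to 7 with each library left out. The cause of these shifts was not tested. With the replicate number as a block, 8 of the genes described, and 423 lower and 241 higher over all genes, were called, and CNN1 was the call lost. ACTA2, ACTG2 and TNNT2 had at most 43 counts in a library and did not pass the threshold at log2 fold changes from -1.65 to -1.32. On the same counts without the filter, ACTA2 and ACTG2 did (adjusted p = 3.41e-04 and 2.80e-05), and the part of depth was not tested.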
